A study of Bos taurus with 6 samples.

Results

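SMAD proteins carry signals of the transforming growth factor beta (TGF-beta) family from the cell membrane to the nucleus. Bone morphogenetic proteins (BMPs) act through receptors that phosphorylate SMAD1 and SMAD5, whereas activins, TGF-beta and growth differentiation factor 9 act through receptors that phosphorylate SMAD2 and SMAD3. Both kinds join SMAD4 to enter the nucleus and bind DNA, and SMAD7 blocks the active receptors. In the ovary this pathway is known for the exchange between the oocyte, which secretes GDF9 and BMP15, and the granulosa cells around it.

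The messenger RNAs of SMAD1, SMAD2, SMAD3, SMAD4, SMAD5 and SMAD7 were followed in cow oocytes on a 2-colour oligonucleotide array. Members were all probes that the array's platform annotation assigns to these 6 symbols, which gave 9 of 43794 probes, or 6 of the 15229 gene symbols on the array. There was 1 probe each for SMAD1, SMAD3, SMAD5 and SMAD7, 2 for SMAD2 and 3 for SMAD4. All 6 symbols also occur in RefSeq's cattle gene table, and the annotation used here holds no probe positions or sequences.

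Both groups were oocytes of the same 3 Holstein cows, labelled as second parity, after superstimulation with follicle-stimulating hormone (FSH) every 12 h for 3 days and then 68 h of coasting without FSH. In the antagonist group a gonadotropin-releasing hormone (GnRH) antagonist, named cetrotide in the labels, was given during the whole of coasting. In the control group the cows coasted without it. At least a month separated both collections of a cow, cumulus cells were stripped off mechanically, and RNA was amplified to antisense RNA before labelling.

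The antagonist and control RNA of a cow shared an array, and a second array held the same pair with the dyes exchanged. Cows are therefore the replicates (n = 3), each with 2 arrays. Unless stated otherwise, values are the authors' deposited log2 ratios of antagonist over control. The mean of both arrays stands for a cow, and errors are the SD over cows. An array cannot tell fewer RNA molecules per oocyte from RNA that amplified less.

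The background criterion was the average of the negative control spots in a channel plus 2 of their SDs. A probe was tested when its raw spot intensity passed that level in 3 or more of the 6 readings with antagonist or of the 6 of control. This held for 32527 probes, 7 of them SMAD probes from 5 genes. Between 55.8% and 77.5% of probes exceeded that level per channel. All 13 measured oocyte markers, among them ZP3, FIGLA and DDX4, did so in 12 of 12 readings, against 9 of 21 granulosa and cumulus markers on the array. The granulosa genes CYP11A1, HSD3B1, FOXL2, AMH and LHCGR were not tested because they failed the criterion. Others of that list were bright, with mean log2 intensities of 14.33 for STAR and 13.85 for SERPINE2. The oocyte markers FIGLA, ZP3 and DDX4 had 14.86, 10.64 and 10.51. Summed linear intensity over both groups was 32402 to 54205 for granulosa and cumulus markers and 92496 to 102394 for oocyte markers. Cumulus RNA may thus be present in these samples.

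The comparison asks how blocking GnRH during coasting altered transcripts of the SMADs stored in the oocyte. SMAD1 was lower with the antagonist in each cow and on every array, by about the same amount in all 3 animals. SMAD2 was higher in cow 1 and lower in cows 2 and 3, on both arrays of each. SMAD3, SMAD4 and SMAD7 had mean ratios close to 0. No SMAD probe passed limma's test with Benjamini-Hochberg adjustment over all probes, and neither did any other of the 32527 tested probes (0%). The lowest adjusted p of any probe was 0.26, and limma listed 4225 probes at an unadjusted p under 0.05.

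**Figure D1:**
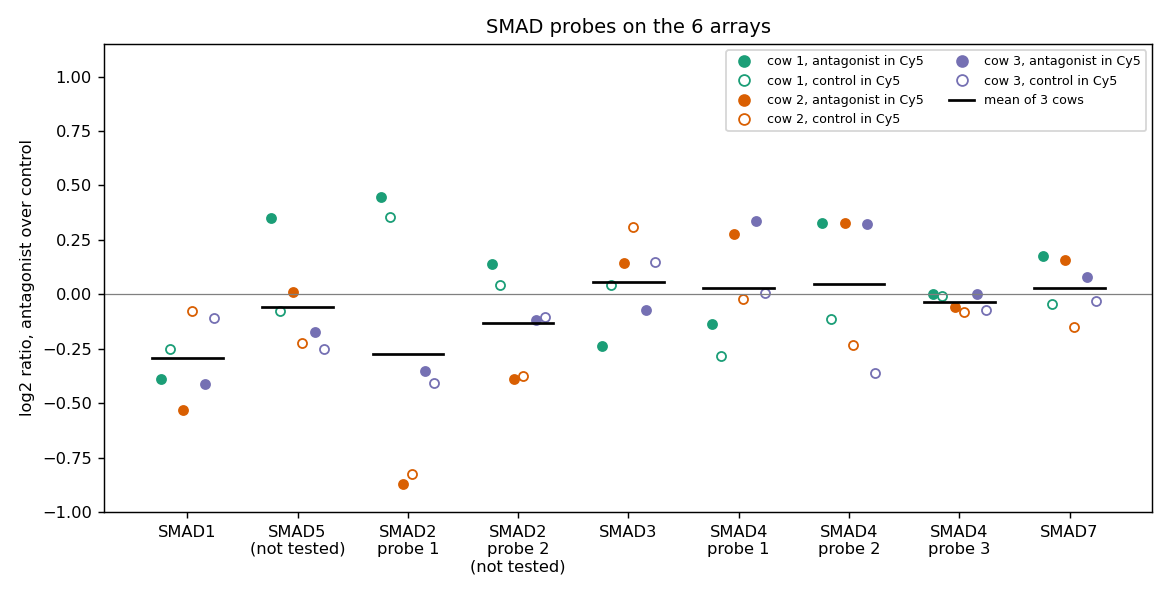
Log2 ratios of antagonist over control (y axis) of the 9 SMAD probes (x axis) on each of 6 arrays. Colours mark cows, filled points are arrays with antagonist in Cy5, open points are arrays with control in Cy5, and bars are means of 3 cows. All 6 SMAD1 points lie below 0, and the SMAD2 points of probe 1 separate by cow, whereas those of SMAD4 probe 2 separate by dye.

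SMAD1, which transmits BMP signals, was represented by probe EMBV3_40789. Its raw intensity was 52.7 to 119 times the background criterion over the 12 readings and reached 20346, well below the highest spot means of the arrays, 38906 to 41132. Normalised log2 intensities computed from the scanner files were 13.94, 13.77 and 13.91 in antagonist oocytes of cows 1, 2 and 3. In control oocytes of the same cows they were 14.26, 14.10 and 14.17. Every antagonist value lay below every control value. The share of all tested probes with such levels was not computed, so this does not mark SMAD1 out.

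With antagonist in Cy5, SMAD1 had ratios of -0.39, -0.53 and -0.41 in cows 1, 2 and 3. With control in Cy5 it had -0.25, -0.08 and -0.11. All 6 were negative, but those with antagonist in Cy5 lay farther from 0. The dye term, the difference between both orientations, was -0.30 by limma (adjusted p = 0.0032).

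With orientations averaged, the SMAD1 ratios were -0.32, -0.30 and -0.26, a mean of -0.29 ± 0.031 (SD, n = 3). This is a control level 1.23-fold that with antagonist, with a 95% interval of the log2 ratio from -0.41 to -0.18. Limma's unadjusted p was 0.0027 and the adjusted p 0.27. The interval and p draw in part on the SD over cows, which lay below the error of a cow's mean, 0.056. With an intensity trend in limma's eBayes step the unadjusted p was 0.041 and the adjusted p 0.33. The mean is far larger than the spread between cows, yet an exact sign-flip permutation over 3 cows cannot give a two-sided p below 0.25. SMAD1 was the 1 of 7 tested SMAD probes that was lower at an unadjusted p under 0.05, which 6.17% of all tested probes were, and 10.6% of the brightest 25% of them. It was also the 1 of 7 below 0 on all 6 arrays, as were 5.43% of all tested probes and 8.74% of that brightest 25%, to which SMAD1 belongs.

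Of the 8131 probes in that brightest 25%, 0.90% had a smaller SD over cows than SMAD1. A lower mean ratio than that of SMAD1 was found for 18.3% of them, so the size of its ratio was not exceptional. Their median ratio was -0.01. Scanner ratios that were only median-centred, with no loess and thus with trends by brightness left in place, gave -0.49 for SMAD1 and a median of -0.15 for these bright probes. Relative to that median SMAD1 then lay at -0.33, against -0.28 with the deposited ratios.

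**Figure D2:**
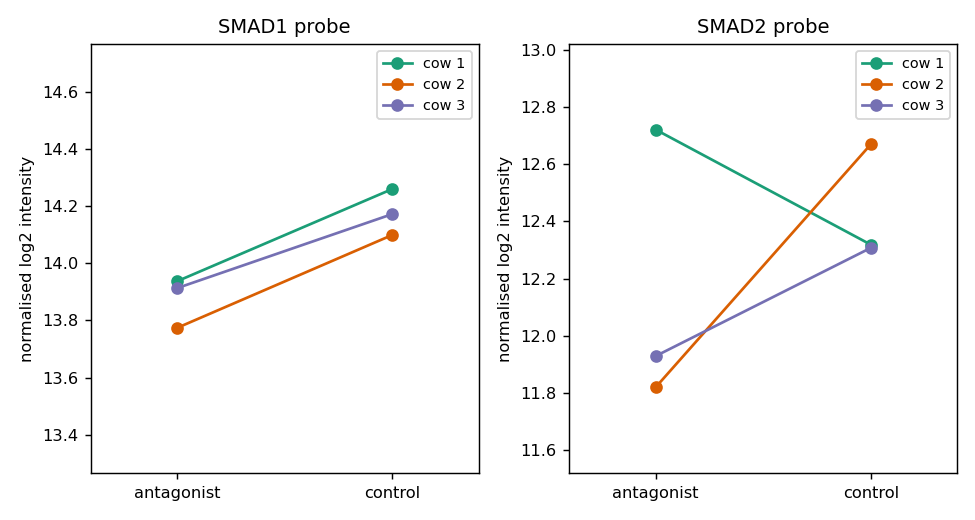
Normalised log2 intensity (y axis) of the SMAD1 probe and of the brighter SMAD2 probe in antagonist and control oocytes, 1 line per cow, each point the mean of a Cy5 and a Cy3 reading. SMAD1 falls between 13.77 and 13.94 with antagonist and between 14.10 and 14.26 in control, while the SMAD2 lines cross.

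SMAD5, which transmits BMP signals as SMAD1 does, had 1 probe, EMBV3_19852. It exceeded the background criterion in 2 of 6 readings with antagonist and in 2 of 6 of control, and it was not tested. Its deposited ratios were 0.14, -0.10 and -0.21 in cows 1, 2 and 3, with a mean of -0.06 ± 0.18. They changed sign between cows, and for a probe this dim they say little about the transcript.

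SMAD2, which transmits activin, TGF-beta and GDF9 signals, had a bright probe, EMBV3_15068, at 13.4 to 37.8 times the background criterion. Its normalised log2 intensities were 12.72, 11.82 and 11.93 in antagonist oocytes of cows 1, 2 and 3, and 12.32, 12.67 and 12.31 in control oocytes. Antagonist values thus spanned the control values.

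The deposited SMAD2 ratios were 0.45, -0.87 and -0.35 in cows 1, 2 and 3 on the arrays with antagonist in Cy5. They were 0.35, -0.82 and -0.41 on the arrays with control in Cy5. Both orientations gave nearly the same value in each cow, and the dye term was 0.03 (limma adjusted p = 0.57). Cow means were 0.40, -0.85 and -0.38, so that antagonist over control was 1.32-fold in cow 1. Control exceeded antagonist 1.80-fold in cow 2 and 1.30-fold in cow 3.

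Over cows the SMAD2 mean was -0.28 ± 0.63 (SD, n = 3), with a 95% interval from -1.09 to 0.53 and a limma adjusted p of 0.73. The mean was smaller than the spread between cows and says little by itself. Without cow 2 it was 0.01, and without cow 1 it was -0.61. The difference between cows, in contrast, passed limma's F-test on the 6 arrays (adjusted p = 2.9e-06), as did 48.3% of all tested probes. That test sets cows against the error of the dye exchange alone, since each cow gave 1 pair of RNAs. It does not separate animals from collections or amplifications.

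The SD of SMAD2 over cows exceeded that of 97.7% of tested probes and of 92.0% of the brightest 25%. The second SMAD2 probe, EMBV3_15506, exceeded the background criterion in 1 of 6 readings with antagonist and 2 of 6 of control and was not tested. Its ratios of 0.09, -0.38 and -0.11 had the same sign as those of the bright probe in each cow, at a smaller size.

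Some genes of the granulosa and cumulus marker list had their lowest ratio in cow 2 and their highest in cow 1, as SMAD2 did. The 3 of these with the widest range over cows are given here, picked after their values were seen. PTGS2, the prostaglandin synthase of cumulus expansion, had ratios of 0.53, -0.94 and -0.27 in cows 1, 2 and 3. HAS2, which makes hyaluronan, had -0.0042, -0.97 and -0.38, and SERPINE2, a protease inhibitor, had -0.05, -1.16 and -0.30.

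Other genes of the granulosa and cumulus list did not follow that order, such as INHBA at -0.41, 0.12 and 1.46. The order was not particular to this list. Of the oocyte markers, GDF9, ZP4, ZAR1, DAZL and KIT had it too, and the remaining ones did not. MAP3K7 and CREBBP, from the SMAD pathway and picked after their values were seen, had it with the signs of SMAD2. The 16 tested genes of the granulosa and cumulus list had medians of -0.01, -0.08 and 0.02 in cows 1, 2 and 3. Of them, 0 passed at an unadjusted p under 0.05 by limma. Also, their summed linear intensity ranged from 32402 to 43414 with antagonist and from 34231 to 54205 in control. The part of cumulus RNA in the SMAD2 ratios was not tested. Among all tested probes, 543 (1.67%) had a ratio above 0.2 in cow 1 and below -0.2 in cows 2 and 3, as SMAD2 did; the limit of 0.2 was set after its values were seen. Across all tested probes the ratios of cows 2 and 3 correlated at 0.79, those of cows 1 and 2 at 0.20 and those of cows 1 and 3 at 0.28, where probes are not independent and share arrays.

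SMAD3, the second activin-type SMAD, had probe EMBV3_36827, at 1.84 to 2.56 times the background criterion. Its ratios were -0.24, 0.14 and -0.07 in cows 1, 2 and 3 with antagonist in Cy5, and 0.04, 0.31 and 0.15 with control in Cy5. Every cow had the higher ratio on the array with control in Cy5, and the dye term was -0.22 (limma adjusted p = 0.0036). With that balanced, cow means were -0.10, 0.23 and 0.04.

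The SMAD3 mean was 0.06 ± 0.16, with a 95% interval from -0.18 to 0.29 and a limma adjusted p of 0.82. In cow 2 both arrays gave a positive SMAD3 ratio, whereas in cows 1 and 3 the 2 arrays differed in sign. Its cow ratios were unequal by limma's F-test (adjusted p = 0.0053).

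**Figure D3:**
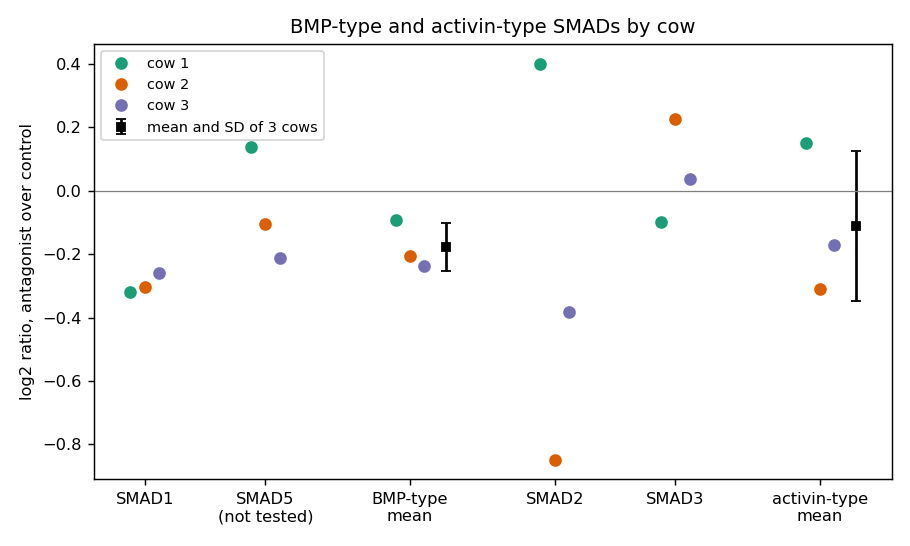
Log2 ratios of antagonist over control (y axis), 1 coloured point per cow, for SMAD1, SMAD5, their mean, SMAD2, SMAD3 and their mean. Black squares and bars beside both class means are the mean and SD of 3 cows. BMP-type means lie between -0.24 and -0.09, and activin-type means between -0.31 and 0.15.

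BMP-type and activin-type SMADs were compared within each array. The mean ratio of SMAD1 and SMAD5 was -0.09, -0.20 and -0.24 in cows 1, 2 and 3, and that of SMAD2 and SMAD3 was 0.15, -0.31 and -0.17. The difference, BMP-type minus activin-type, was -0.24, 0.11 and -0.06, a mean of -0.07 ± 0.17. It changed sign between cows and was smaller than its spread, so the classes did not separate. Without cow 1 the mean was 0.02. With SMAD1 alone for the BMP type, since the SMAD5 probe was too dim to be tested, the difference was -0.47, 0.01 and -0.09, a mean of -0.18 ± 0.25. These are descriptions, with no test.

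Pairs of single genes showed where the classes were not uniform. SMAD1 minus SMAD3 was -0.22, -0.53 and -0.30 in cows 1, 2 and 3, negative on 6 of 6 arrays, with a mean of -0.35 ± 0.16. Of the pairs among SMAD1, SMAD2, SMAD3 and SMAD5 it alone kept 1 sign on all arrays. SMAD1 by itself was already below 0 on all of them. The dye terms of both probes, -0.30 and -0.22, had the same sign and partly cancel in the difference. The share of other probe pairs with 1 sign on all arrays was not computed. SMAD1 minus SMAD2 was -0.72, 0.54 and 0.12, and SMAD2 minus SMAD3 was 0.50, -1.07 and -0.42. In each cow SMAD2 and SMAD3 differed by more, within the activin type, than the 2 class means did.

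SMAD4, the partner shared by both classes, had 3 tested probes with different behaviour. The brightest, EMBV3_24296, had ratios of -0.14, 0.28 and 0.34 in cows 1, 2 and 3 with antagonist in Cy5, and -0.28, -0.02 and 0.01 with control in Cy5. Its cow means of -0.21, 0.13 and 0.17 gave 0.03 ± 0.21 (95% interval -0.26 to 0.32, limma adjusted p = 0.93). The cows differed by limma's F-test (adjusted p = 0.0022).

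The second SMAD4 probe, EMBV3_36471, had 0.33, 0.33 and 0.32 with antagonist in Cy5, and -0.11, -0.23 and -0.36 with control in Cy5. Its sign followed the dye on all 6 arrays. The dye term was 0.56 (limma adjusted p = 5.1e-05), and the balanced cow means of 0.11, 0.05 and -0.02 averaged 0.05 ± 0.063. Its ratio in a single orientation was thus positive in 3 of 3 cows or negative in 3 of 3.

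The third SMAD4 probe, EMBV3_34652, was near background, above the criterion in 5 of 6 readings with antagonist and 5 of 6 of control. Its cow means were -0.0038, -0.07 and -0.04, with a mean of -0.04 ± 0.033. No probe of SMAD4 had an interval that excluded 0, and the widest reached from -0.26 to 0.32.

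SMAD7, the inhibitory SMAD whose gene the pathway itself is known to induce, had probe EMBV3_29191. It exceeded the background criterion in 6 of 6 readings with antagonist and in 3 of 6 of control, at 0.90 to 1.09 times the criterion, so it barely qualified. Its ratios were 0.18, 0.16 and 0.08 with antagonist in Cy5, and -0.05, -0.15 and -0.03 with control in Cy5. The sign followed the dye here too, with a dye term of 0.21 (limma adjusted p = 0.0077). Cow means of 0.06, 0.0048 and 0.02 gave 0.03 ± 0.031 (limma adjusted p = 0.80).

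None of the 7 tested SMAD probes was above 0 on all 6 arrays, as 6.78% of all tested probes were. None was higher at an unadjusted p under 0.05, which held for 6.82%. A dye term passed limma's adjusted test for 5 of the 7, SMAD1, SMAD3, 2 probes of SMAD4 and SMAD7, against 66.1% of all tested probes. The cow ratios differed for 3 of the 7, those of SMAD2, SMAD3 and the brightest SMAD4 probe, against 48.3% of all tested probes. Both shares are of the order of the background, so neither marks the SMADs out.

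**Figure D4:**
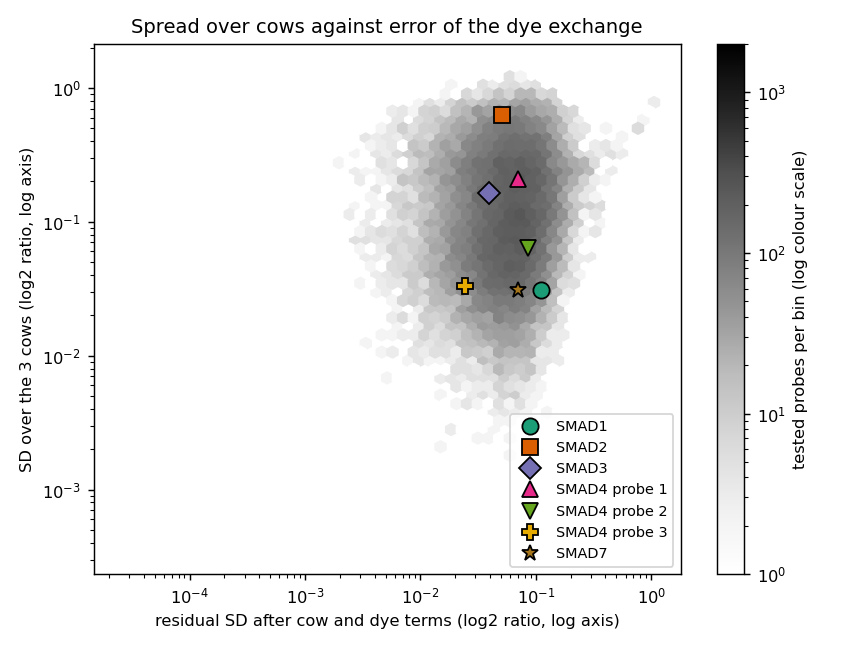
SD of the log2 ratio over the 3 cows (y axis, log scale) against the residual SD after cow and dye terms on 6 arrays (x axis, log scale). Grey bins count all tested probes and symbols are the 7 tested SMAD probes. SMAD2 stands high at an SD over cows of 0.63 with a residual SD of 0.051, and SMAD1 stands low at 0.031 with 0.11.

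For SMAD1 the error of a cow's mean of 2 arrays, from limma's moderated residual SD, was 0.056, larger than the SD of 0.031 over its 3 cow means. The spread over cows thus lay below the measurement error, and the close agreement cannot be read as a property of the cows. For SMAD2 the error of a cow's mean was 0.044, against an SD over cows of 0.63.

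Fits that enter the 6 arrays singly call more probes. With the cow as a block (replicate block) and a dye term, limma called 3.23% of all tested probes and no SMAD probe, and SMAD1 had an adjusted p of 0.12. With the slide, as numbered in the names of the scanner files, as a random block, limma called 4.53% of all tested probes and 1 SMAD probe, SMAD1, at -0.30 (adjusted p = 0.026). The 2 arrays of cow 1, and those of cow 3, had different slide numbers, so this fit counted them as independent. Both arrays of cow 2 shared a slide number, and the consensus correlation within slides was 0.093. This fit thus did not pair arrays by cow. On the 4 arrays that share a slide number the SMAD1 ratio was -0.37 (limma adjusted p = 0.23). These were both arrays of cow 2, but of cows 1 and 3 only the array with antagonist in Cy5. The dye was thus not balanced in that value.

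The genes whose 6 array ratios lay nearest to those of SMAD1, by Euclidean distance among 12313 other genes, were BRCC3, GRB2, BAG2, TRMT11 and UBA3. BRCC3 encodes a deubiquitinating enzyme and had a ratio of -0.27 ± 0.041, at a distance of 0.13. GRB2, an adaptor of receptor tyrosine kinases, had -0.30 ± 0.065, and BAG2, a co-chaperone, had -0.25 ± 0.048. TRMT11, a transfer RNA methyltransferase subunit, had -0.31 ± 0.025, and UBA3, of the NEDD8 activating enzyme, had -0.31 ± 0.017. In all 5, as in SMAD1, each cow's ratio was lower with antagonist in Cy5 than with control in Cy5. These genes were picked by the same 6 ratios, so their likeness to SMAD1 in size, spread and dye pattern follows from the selection. None passed limma's adjusted test.

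Genes that feed into the SMADs were described from lists of ligands, receptors, inhibitors, partners and targets. Of 111 listed genes 98 had a symbol on the array and 78 were tested. At an unadjusted p under 0.05 by limma 4 were higher and 5 lower, and 69 did not pass. None passed after adjustment. Their median ratio was -0.0056, against 0.0055 for all 12314 tested genes with a symbol. At the same level 1066 of those genes were higher and 827 lower. On all 6 arrays 3 of the 78 pathway genes were above 0 and 4 below 0, against 1061 and 747 of the 12314.

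Ligands had a median of 0.0016 over 15 tested genes, 2 of which were higher at an unadjusted p under 0.05. These were BMP4 at 0.14 ± 0.031 and BMP6 at 0.23 ± 0.12, named after their values were seen, and their signs differed between arrays. The oocyte ligand GDF9 had ratios of 0.53, 0.06 and 0.26 in cows 1, 2 and 3 (0.28 ± 0.24), and BMP15, the other, had -0.18, 0.21 and -0.02 (0.0016 ± 0.19). On single arrays GDF9 ranged from -0.28 to 0.74 and BMP15 from -0.41 to 0.58. Both had a dye term (limma adjusted p = 7.4e-05 and 6.7e-05). INHBA, the activin A subunit of granulosa cells, had -0.41, 0.12 and 1.46 (0.39 ± 0.96). The signs of BMP15 and INHBA differed between cows, and neither gene nor GDF9 passed.

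Receptors had a median of -0.15 over 11 tested genes, of which 3 were lower and 1 higher at an unadjusted p under 0.05. Of all 12314 tested genes with a symbol, 827 were lower and 1066 higher at that level. No test compared the receptor list with these. The median of the list was the ratio of BMPR1A, named after its value was seen, whose other probes gave -0.07 and -0.72. ACVR1, a type I receptor that phosphorylates SMAD1 and SMAD5, had ratios of -0.29, -1.09 and -0.80 in cows 1, 2 and 3, below 0 on all 6 arrays, with a mean of -0.73 ± 0.40 (limma adjusted p = 0.31). Its other probe gave -0.0056. TGFBR3, the co-receptor betaglycan, had -0.66 ± 0.28 (adjusted p = 0.28), and its other probes gave -0.28 and 0.09. The third that was lower, named after its value was seen, was ACVR1B, an activin type I receptor, at -0.31 ± 0.16, with signs that differed between arrays.

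ACVR2A, a type II receptor of activins and BMPs, had 0.40 ± 0.25, above 0 on all 6 arrays (limma adjusted p = 0.34), with -0.10 and -0.16 from its other probes. BMPR2, the type II receptor of BMP15 and GDF9, had 0.10, -0.80 and -0.27 in cows 1, 2 and 3, the order and signs of SMAD2, and its other probes gave 0.0050 and -0.03. BMPR1B, a type I receptor, had -0.28 ± 0.26, and its other probes gave 0.10 and -0.28. Ratios of probes of 1 receptor gene thus often differed, and the median of the receptor list rests on the brightest of them. The other probes are dimmer by that choice, and the part of brightness in these differences was not tested.

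Extracellular and membrane antagonists had a median of 0.02 over 9 tested genes, and 1 was lower at an unadjusted p under 0.05. That was BAMBI, a decoy receptor, at -0.34 ± 0.22 and below 0 on all 6 arrays (limma adjusted p = 0.35), while its other probes gave -0.03 and -0.0010. The list labelled intracellular inhibitors, in which RNF111 is not an inhibitor, had a median of 0.05 over 17 genes, with 1 higher and 1 lower. The higher was NEDD4L, a ubiquitin ligase that targets activated SMAD2 and SMAD3, at 0.24 ± 0.098 and above 0 on all 6 arrays (limma adjusted p = 0.31). The lower, named after its value was seen, was TOB1 at -0.28 ± 0.066, with signs that differed between arrays.

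Partners and transport factors had a median of -0.03 over 16 genes, and target genes one of 0.02 over 11. In both lists 0 genes passed at an unadjusted p under 0.05 by limma. ID2 and ID3, which BMP signals induce through SMAD1 and SMAD5, are in the target list and are named here after their values were seen. ID2 had -0.19, -0.10 and 0.17 in cows 1, 2 and 3. The brightest probe of ID3 had a mean ratio of 0.02 ± 0.070, but its other probes gave 0.60, 0.56, 0.57 and -0.18, each at an unadjusted limma p under 0.05. The direction of ID3 therefore depends on the probe.

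**Figure D5:**
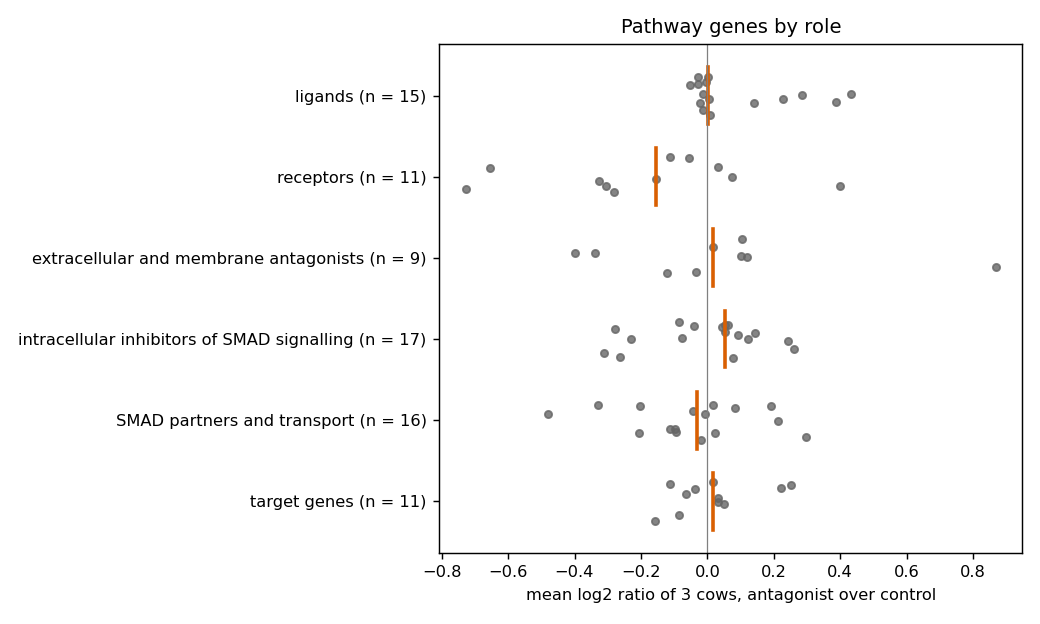
Mean log2 ratio of antagonist over control (x axis) of tested pathway genes in 6 lists by role (y axis), 1 grey point per gene, each the mean of 3 cows (SMAD6 stands in 2 lists), with the list's median as an orange line. The receptor median lies at -0.15, and the other 5 lie between -0.03 and 0.05.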

How the data were processed

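Oocyte RNA of 3 cows was measured on 6 arrays with 2 channels, antagonist and control RNA of a cow on each. Cow and dye came from the labels, and the pairing by cow is stated in the design. The scanner files hold raw spot intensity, with local background, in the Cy5 and Cy3 channels, per the file headers. The authors also deposited a value table in log2 units, 1 ratio for each probe on an array. How these ratios were normalized is not given in the sources used here. Set against scanner ratios turned to antagonist over control, its columns correlated at 0.992 to 0.997 with slopes of 0.978 to 0.987 on bright probes, which fixed its direction and scale. Its column medians lay between -0.0027 and 0.0018.

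Of 45220 spots per array, 105 were left out as ignored by the image analysis, and 152 negative control spots set the background criterion. Each cow's value was the mean of its dye exchange, and the 3 cow values were tested against 0 across all 32527 tested probes with limma 3.58.1 (lmFit, eBayes, two-sided, Benjamini-Hochberg) under R 4.3.3. A fit of 6 arrays with cow and dye terms gave the dye term and the F-test between cows. Scanner intensities were corrected by normexp (offset 50) and loess, and for levels also by Aquantile, as an alternative source of ratios and for the levels printed. The fit was tested on simulated data. No depth or interval of counts applies to arrays, and 3 cows limit the precision.

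A gene was represented by its brightest tested probe. Pathway genes were named when below an unadjusted p of 0.05 with 1 sign on all 6 arrays, along with GDF9, BMP15, INHBA, BMPR1B, BMPR2 and ACVR2A in any case. The SMAD genes, lists and tests were chosen with earlier results of these data known. The symbols come from a platform annotation that can be old, with 21790 probes carrying 1 symbol and none several.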

Additional observations from a re-analysis of the deposited data

Results flagged for a closer look

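The ratio of antagonist over control differed between both dye orientations for 5 of 7 tested SMAD probes, by the dye term of limma's fit of 6 arrays. Of all tested probes 66.1% had such a dye term, so the SMADs do not stand out. The term, antagonist in Cy5 minus control in Cy5, was -0.30 for SMAD1, -0.22 for SMAD3, 0.26 for the brightest SMAD4 probe, 0.56 for the second SMAD4 probe and 0.21 for SMAD7.

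The ratios differed between cows for 3 of 7 tested SMAD probes, by limma's F-test against the error of the dye exchange. Of all tested probes 48.3% passed that test, so the SMADs do not stand out here either. The adjusted p was 2.9e-06 for SMAD2, 0.0053 for SMAD3 and 0.0022 for the brightest SMAD4 probe. Groups of 3 arrays or cows are too small for a test of single outlying samples, and none was run.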

How the results depend on the processing

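The SMAD1 ratio was negative under all 16 alternatives, from -0.49 to -0.15, with adjusted p-values from 0.026 to 0.92; it passed only with the slide as a random block. On single orientations SMAD1 was -0.15 with control in Cy5 and -0.44 with antagonist in Cy5. With control in Cy5 the brightest SMAD4 probe turned to -0.10, the second to -0.24 and SMAD7 to -0.076. SMAD3 turned to -0.057 with antagonist in Cy5 and to -0.028 on the shared slide number. Leaving out each cow in turn gave -0.61 to 0.0091 for SMAD2, -0.030 to 0.13 for SMAD3 and -0.042 to 0.15 for the brightest SMAD4 probe. The number of probes called was 0 in the paired fit over cows, 1050 with the cow as a replicate block, 1473 with the slide as a block, 8 with no replicate block (unpaired channel values), 125 with control in Cy5 and 134 with antagonist in Cy5. The BMP-type minus activin-type difference stayed within 1 SD of its value, with -0.15 to 0.02 when each cow was left out, and had no value under the strictest filter, which SMAD5 fails. With SMAD1 alone as BMP type, a setting chosen after seeing the data, it was -0.18. The pathway genes at an unadjusted p under 0.05, 9 in the paired fit, numbered 15 with the cow as a replicate block, 18 with the slide as a block, 19 with control in Cy5, 21 with antagonist in Cy5, and 4 without cow 3 to 15 without cow 1. The cause of these changes was not tested, except that single orientations do not cancel the dye. On the shared slide number the dye was not balanced either. Of cows 1 and 3 that slide number held only the array with antagonist in Cy5. Signal over background limits SMAD5, SMAD7 and the dim probes of SMAD2 and SMAD4.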

Other observations

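SMAD6, an inhibitory SMAD that favours the BMP branch, and SMAD9, a further BMP-type SMAD, also had tested probes. SMAD6 had ratios of -0.24, 0.15 and -0.16 in cows 1, 2 and 3, and SMAD9 had -0.02, 0.04 and 0.04. The single arrays of SMAD6 ranged from -1.08 to 1.08, with a dye term that passed limma's test (adjusted p = 1.8e-07), so its cow values are small remainders of a large dye effect. The unadjusted limma p was 0.44 for SMAD6 and 0.61 for SMAD9.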
